A study of Meriones unguiculatus and Mus musculus with 2 samples.

Results

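The cell membrane carriers of glucose, amino acids, lactate and related small metabolites were followed in skin wounds of Meriones unguiculatus, the Mongolian gerbil, and of the laboratory mouse stock ICR, which is bred as an outbred colony. They were taken as every gene whose symbol places it in the solute carrier (SLC) families 1, 2, 3, 5, 6, 7, 16, 36, 38 or 43, which gave 106 of the 41214 mouse genes listed. Of these, 101 are transporter or transporter heavy-chain genes, and 5 carry such a name without being one: the pseudogene Slc2a4rg-ps, the opposite-strand genes Slc6a19os, Slc36a1os and Slc36a3os, and the neighbouring coding gene Slc7a6os. Both groups received the same treatment, wounding, and were sampled at 3 days. The gerbil group and the ICR group hold 1 library each, whose tissue is given as dermis of the wound. No other agent or allele is named, and the sources used here do not give sex, age or the number of animals behind a library. With 1 library per species no difference has a replicate check, so none has a test or a p-value, and every statement is about these 2 libraries.

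Facilitative glucose carriers of the SLC2 (GLUT) family let glucose flow down its gradient, while SLC5 carriers couple glucose or other solutes to sodium. Monocarboxylate carriers of the SLC16 (MCT) family move lactate with a proton, in or out of the cell, and MCT1 and MCT4 need a glycoprotein partner to reach the surface. Amino acids enter by sodium-coupled carriers (SLC1, SLC6, SLC38), by exchangers built from an SLC7 light chain and an SLC3 heavy chain, and by the proton-coupled SLC36 and the facilitative SLC43 carriers. In healing skin, migrating keratinocytes and recruited leukocytes are known for high glucose use and lactate release, and arginine, glutamine and cystine uptake feed growth, nitric oxide and glutathione synthesis.

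Levels were deposited as FPKM, a fragment count per length of transcript and per size of library, so levels of different genes can be set side by side within a library. The gerbil values were measured after assembly, per the file header, and each comes with an expectation value (E-value), read here as that of the match between an assembled gerbil sequence and the mouse gene. An E-value is the number of matches that good expected by chance, so 0 is the strongest and a larger one is weaker. Comparisons between genes within gerbil thus also depend on which assembled sequence was assigned to each gene, which was not tested. Differences are the gerbil value of log2(FPKM + 1) minus the ICR value, a scale that understates differences of low genes. A gene counts as measured where both libraries had a value and at least 1 of them reached 1 FPKM, which held for 70 of the 106 genes. A further 7 had both values but stayed under 1 FPKM, 28 had an ICR value without a gerbil value, and Slc7a5, the LAT1 light chain, had no value analysed here.

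The gerbil column repeats values between genes, so sharing was examined first. Of the 70 measured genes, 5 had a gerbil value of their own: Slc2a1, Slc3a2, Slc6a6, Slc6a8 and Slc38a2. The other 65 shared theirs, but for 61 of these no gene sharing the value was found to have a related coding sequence. Sharing genes without a coding sequence could not be compared. Values under 10 FPKM, with 2 decimals, can also coincide by rounding. Sharing was not limited to such values: of the 22 measured genes at 10 FPKM or more in gerbil, 5 had an unshared value. Sharing with a related coding sequence was found for 4 measured genes, the pairs Slc2a3 with Slc2a4 and Slc6a12 with Slc6a13. Slc2a3 encodes GLUT3, a high-affinity glucose carrier of neurons and leukocytes, and Slc2a4 encodes GLUT4, the insulin-responsive carrier of fat and muscle. Both were listed at 304 FPKM in gerbil, with an E-value of 0 for Slc2a3 and 2e-41 for Slc2a4. Their mouse coding sequences were 66.9% identical over 1220 aligned bases, and the most alike stretch of 90 bases differed at 7 positions. Slc6a12 and Slc6a13, carriers of betaine and of gamma-aminobutyric acid (GABA), were both at 2.21 FPKM in gerbil with an E-value of 0. For each, 11 other genes carried that value, 10 of them with an E-value of 0, so this pair can also coincide by rounding. The coding sequences of this pair were 75.7% identical over 1537 bases, with 3 differences in the most alike 90. Those stretches, from the GENCODE M21 transcripts on GRCm38, are shown to let a reader see how near the members of each pair are, in lower case 5′ to 3′ with the differing bases in capitals.
Slc2a3: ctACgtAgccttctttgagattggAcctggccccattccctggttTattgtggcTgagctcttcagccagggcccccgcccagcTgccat
Slc2a4: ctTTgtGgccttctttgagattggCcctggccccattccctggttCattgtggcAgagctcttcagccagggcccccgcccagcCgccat
Slc6a12: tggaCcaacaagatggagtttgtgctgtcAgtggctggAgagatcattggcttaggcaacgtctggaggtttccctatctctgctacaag
Slc6a13: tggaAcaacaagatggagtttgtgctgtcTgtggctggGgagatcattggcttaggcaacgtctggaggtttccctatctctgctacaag
Positions counted from the first base of the coding sequence were 1116 to 1205 in Slc2a3 (chromosome 6, minus strand), 1170 to 1259 in Slc2a4 (chromosome 11, minus strand), 157 to 246 in Slc6a12 and 103 to 192 in Slc6a13 (both chromosome 6, plus strand).

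Among glucose carriers, Slc2a1 and Slc2a3 were the leading genes in gerbil, while in ICR Slc2a1 was exceeded by the lactate carrier Slc16a3. Slc2a1 (chromosome 4, 119108711 to 119137330), which encodes GLUT1, the basal glucose carrier of keratinocytes and of most dividing cells, was at 492 FPKM in gerbil and 235 FPKM in ICR. It ranked first of all these genes in gerbil and second in ICR, at percentiles 98.7 and 98.1 of 14538 coding genes with both values. Its log2 difference was 1.06, short of 4-fold, and -1.46 when libraries were scaled on ribosomal protein and housekeeping genes. Slc2a3 was at 304 FPKM in gerbil and 50.7 FPKM in ICR, a log2 difference of 2.56. Within each library, Slc2a3 stood at 0.617 of Slc2a1 in gerbil and at 0.216 of it in ICR. No scaling between libraries can alter that ratio, but in gerbil it rests on a value also listed for Slc2a4. For Slc2a4 the ICR level was 1.44 FPKM, and its listed gerbil level is the shared 304 FPKM on the weaker match.

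Other glucose carriers were far lower. Slc2a6, which encodes GLUT6, a carrier of intracellular membranes, was at 0.03 FPKM in gerbil on an E-value of 0 and at 13.8 FPKM in ICR, a log2 difference of -3.84, and shared that gerbil value with the unrelated gene Oplah. The fructose carrier Slc2a5 was at 1.34 FPKM in gerbil and 4.74 FPKM in ICR, and the intracellular carrier Slc2a8 at 2.99 and 6.74 FPKM in gerbil and ICR. Slc2a9, a urate carrier, was at 6.50 FPKM in gerbil and 2.25 FPKM in ICR. Of the 10 measured SLC2 genes 7 were higher and 3 lower in gerbil, with 2 and 1 of them past 4-fold. The 2 were Slc2a3 and Slc2a4, whose shared gerbil value enters this count and the median for each gene. Slc2a6, the 1 lower, passed the 1 FPKM floor through ICR alone and Slc2a13 through gerbil alone, which set their signs. The family median of 0.67 became -0.90 under that ribosomal and housekeeping scaling. Counting a shared gerbil value once, measured SLC2 genes summed to 813 FPKM in gerbil and 319 FPKM in ICR. Slc2a2 and Slc2a7, without a gerbil value, were listed at 0 in ICR.

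**Figure D1:**
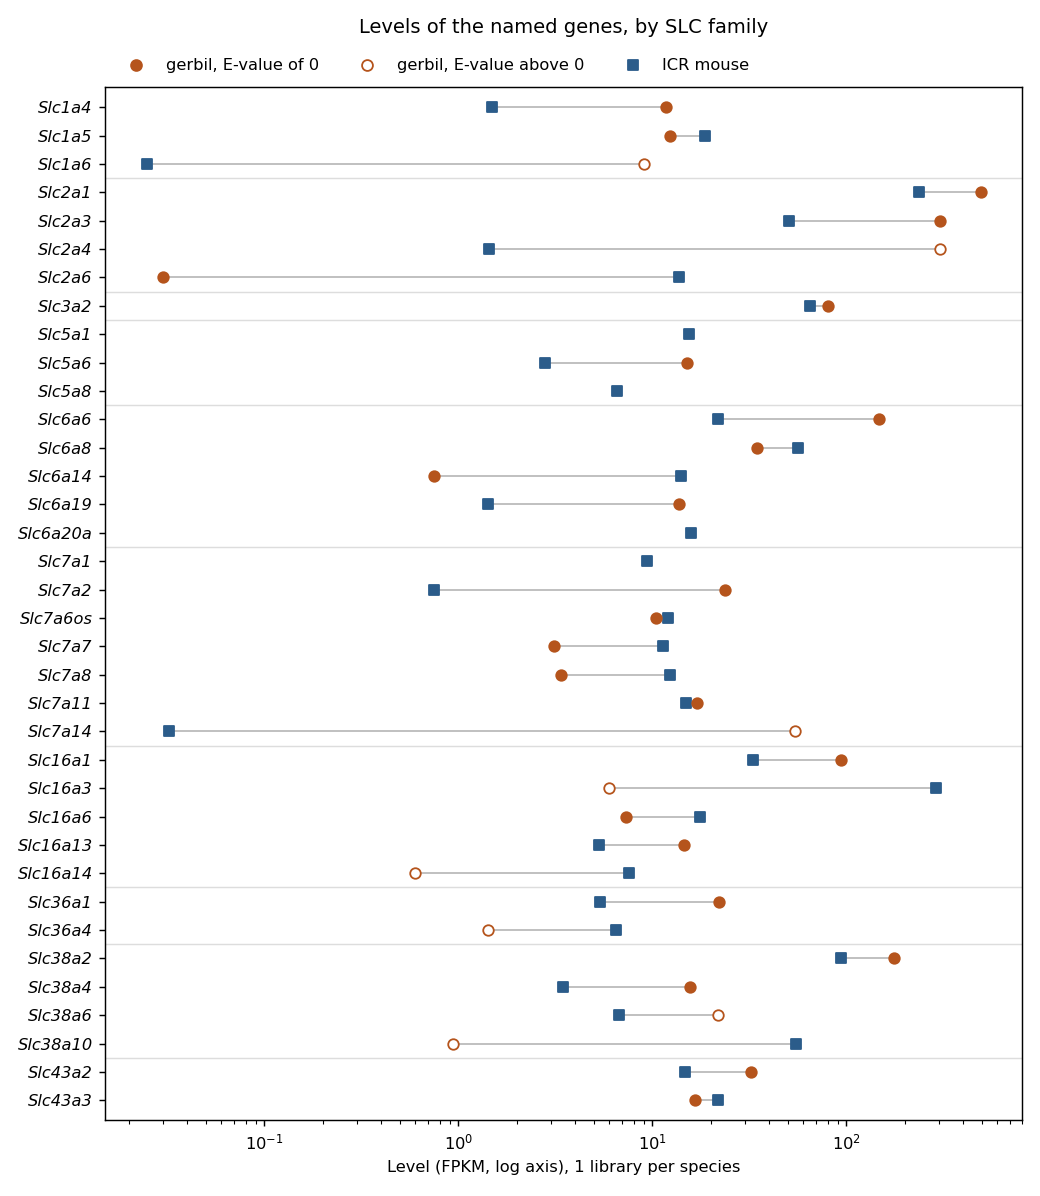
Levels of 36 genes named by rule, in FPKM on a log axis, with SLC families separated by lines; circles are gerbil (open where the E-value is above 0), squares are ICR, and genes with a square alone have no gerbil value. Slc2a1 was at 492 FPKM in gerbil and 235 FPKM in ICR, and the widest gaps with open circles include Slc2a4, Slc7a14, Slc16a3 and Slc38a10.

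Of 8 measured SLC5 carriers 7 were higher in gerbil and 1 lower, with a median of 1.49, and 7 of them were under 5 FPKM in gerbil. Slc5a1, which encodes SGLT1, the sodium-glucose carrier of gut, was at 15.4 FPKM in ICR without a gerbil value, as was Slc5a8, a sodium-coupled carrier of lactate and short fatty acids, at 6.55 FPKM. Slc5a6, the sodium-dependent vitamin carrier for biotin and pantothenate, was the highest SLC5 gene in gerbil at 15.04 FPKM, against 2.79 FPKM in ICR. Its log2 difference was 2.08, which became -0.07 under the ribosomal and housekeeping scaling. Slc5a9 went the other way, at 1.57 FPKM in gerbil and 9.10 FPKM in ICR, a difference of -1.98 that stopped just short of 4-fold. The other measured SLC5 genes lay between 1.68 and 3.30 FPKM in gerbil and under 1 FPKM in ICR. They passed the 1 FPKM floor through gerbil alone, which set their positive sign. The family count and median rest mostly on those genes. Slc5a4b, the sodium-glucose carrier relative, was the one of them past 4-fold, at 3.24 FPKM in gerbil and 0.0307 FPKM in ICR, on an E-value of 3e-41.

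Lactate carriers gave opposite pictures for MCT1 and MCT4, but on matches of unequal strength. Slc16a1 (chromosome 3, 104638668 to 104658462), encoding MCT1, which imports or exports lactate, was at 93.9 FPKM in gerbil and 33.1 FPKM in ICR, with an E-value of 0. That gerbil value was also listed for Cct6a, likewise on an E-value of 0. The log2 difference of Slc16a1 was 1.48, and -0.98 under the ribosomal and housekeeping scaling. Slc16a3, encoding MCT4, the low-affinity lactate exporter of glycolytic cells, was at 5.98 FPKM in gerbil and 288 FPKM in ICR, where it was the highest of all these genes. That difference of -5.37 rests on an E-value of 4e-20, and 9 of the 10 other genes listed at 5.98 FPKM had an E-value of 0. Within the library, Slc16a3 stood at 0.0637 of Slc16a1 in gerbil and 8.73 times Slc16a1 in ICR. In gerbil both values of that ratio were shared with other genes. Of 9 measured SLC16 genes 3 were higher in gerbil and 6 lower, with a median of -0.20.

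The partner of MCT1 and MCT4, Bsg (basigin), was measured on an E-value of 0 and an unshared value, at 418 FPKM in gerbil and 611 FPKM in ICR. Emb (embigin), the partner of MCT2, was at 43.95 FPKM in gerbil and 55.7 FPKM in ICR. Slc16a1 thus stood at 0.225 of Bsg in gerbil, on the value shared with Cct6a, and at 0.0541 of it in ICR. Ldha, the lactate dehydrogenase chain that favours lactate production, was close to level at 1905 FPKM in gerbil and 1848 FPKM in ICR, though 19 other genes carried the same gerbil value. Among the remaining SLC16 genes, Slc16a6, linked to ketone body export in zebrafish, was at 7.28 FPKM in gerbil and 17.7 FPKM in ICR. Slc16a13 was higher in gerbil, at 14.51 and 5.30 FPKM in gerbil and ICR, except under the ribosomal and housekeeping scaling. Slc16a14 was past 4-fold lower, at 0.60 FPKM in gerbil and 7.58 FPKM in ICR, on an E-value of 7e-13. It passed the 1 FPKM floor through ICR alone, which set its negative sign.

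**Figure D2:**
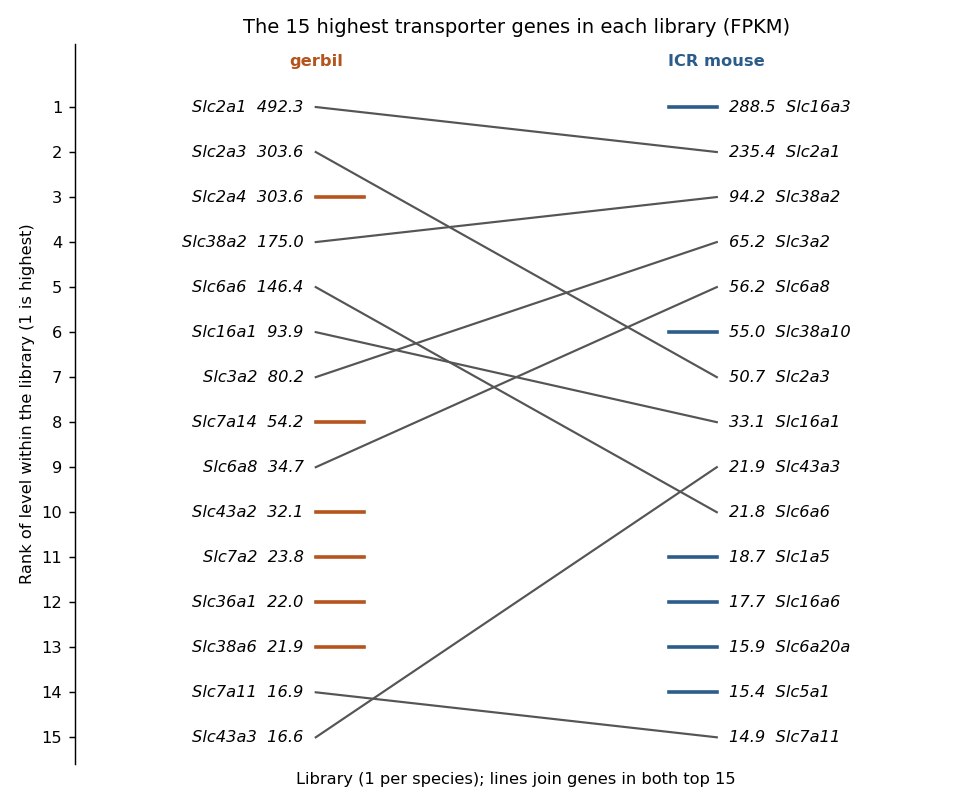
The 15 highest transporter genes in each library, ranked by FPKM within the library (gerbil left, ICR right), with lines joining genes in both lists and short bars marking genes in one list. Slc2a1 ranked first in gerbil and second in ICR, Slc16a3 led in ICR at 288 FPKM and is outside the gerbil list, and Slc2a3 and Slc2a4 hold the same gerbil value of 304 FPKM.

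Sodium-coupled neutral amino acid carriers of the SLC38 family were led in both libraries by Slc38a2. It encodes SNAT2, which takes up glutamine and alanine and is induced by amino acid shortage, and was at 175 FPKM in gerbil and 94.2 FPKM in ICR, an unshared value on an E-value of 0. Its log2 difference of 0.89 became -1.61 under the ribosomal and housekeeping scaling. Slc38a4, encoding SNAT4, was at 15.5 FPKM in gerbil and 3.47 FPKM in ICR, and Slc38a1, encoding SNAT1, was near level at 2.80 and 2.19 FPKM in gerbil and ICR. Slc38a7, a lysosomal glutamine carrier, was at 7.17 FPKM in gerbil and 9.75 FPKM in ICR. Both Slc38a4 and Slc38a6 turned lower in gerbil under that scaling. Slc38a6 and Slc38a10 rested on weaker matches. Slc38a6 was at 21.9 FPKM in gerbil and 6.72 FPKM in ICR with an E-value of 3e-31. Slc38a10 was at 0.94 FPKM in gerbil and 55.05 FPKM in ICR, a difference of -4.85, with an E-value of 2e-71. Of 10 measured SLC38 genes 8 were higher in gerbil and 2 lower. Their median of 0.98 became -0.74 under the ribosomal and housekeeping scaling. Slc38a3, Slc38a8 and Slc38a11 passed the 1 FPKM floor through gerbil alone and Slc38a10 through ICR alone, which set their signs. The median was 0.65 over 6 genes with 1 FPKM in both libraries and 0.41 over 5 genes with an E-value of 0.

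The SLC1 family holds glutamate carriers of the nervous system and the neutral amino acid exchangers ASCT1 and ASCT2. Slc1a5, encoding ASCT2, the main glutamine carrier of dividing cells, was at 12.4 FPKM in gerbil and 18.7 FPKM in ICR, below Slc38a2 in both libraries. Slc1a4, encoding ASCT1, which carries serine and alanine, was at 11.7 FPKM in gerbil and 1.49 FPKM in ICR, a log2 difference of 2.35 on an E-value of 0 that was 1.88 under scaling by a trimmed mean of log ratios and 0.28 under the ribosomal and housekeeping scaling. Slc1a6, the cerebellar glutamate carrier EAAT4, was listed at 9.09 FPKM in gerbil and 0.0248 FPKM in ICR, on an E-value of 2e-96. The glial glutamate carriers Slc1a2 and Slc1a3 were at 1.63 and 3.27 FPKM in gerbil, and at 0.239 and 0.720 FPKM in ICR. Like Slc1a6 and Slc1a7, both passed the 1 FPKM floor through gerbil alone, which set their positive sign.

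In the SLC6 family, the taurine carrier and the creatine carrier changed places between libraries. Slc6a6 (chromosome 6, 91684067 to 91759063), the taurine carrier, was at 146 FPKM in gerbil and 21.8 FPKM in ICR. With a log2 difference of 2.69 it was the one gene past 4-fold with an unshared gerbil value. The difference was 2.18 under a trimmed mean of log ratios and 0.21 under the ribosomal and housekeeping scaling. Slc6a8 (chromosome X, 73673150 to 73682502), the creatine carrier, was at 34.7 FPKM in gerbil and 56.2 FPKM in ICR, also unshared and on an E-value of 0. The ratio of Slc6a6 to Slc6a8 was 4.23 in gerbil and 0.388 in ICR. It does not depend on scaling between libraries, but in gerbil it does depend on the assembled sequences assigned to the 2 genes.

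Epithelial amino acid carriers of SLC6 differed in both directions. Slc6a14, a broad carrier of neutral and cationic amino acids in epithelia, was at 0.75 FPKM in gerbil and 13.96 FPKM in ICR, a log2 difference of -3.10 on an E-value of 0. It passed the 1 FPKM floor through ICR alone, which set its negative sign. Its gerbil value was also listed for 30 other genes, 8 of them with an E-value of 0. Slc6a19, the neutral amino acid carrier B0AT1 of gut and kidney, was at 13.8 FPKM in gerbil and 1.41 FPKM in ICR, a difference of 2.61. Slc6a20a, the proline carrier SIT1, was at 15.9 FPKM in ICR without a gerbil value, and its close copy Slc6a20b was at 2.14 FPKM in gerbil on an E-value of 1e-30 and at 0.0258 FPKM in ICR. Those 2 mouse coding sequences were 92.7% identical over 1732 bases, so how the gerbil sequence was assigned between them is uncertain. The glycine carrier Slc6a9 was at 3.06 FPKM in ICR without a gerbil value.

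Of the amino acid exchangers, the heavy chain Slc3a2 and the light chain Slc7a11 were near level as deposited, and the light chains Slc7a7 and Slc7a8 were lower in gerbil. Slc3a2 (chromosome 19, 8706882 to 8723369), encoding the CD98 heavy chain that carries light chains to the surface, was at 80.2 FPKM in gerbil and 65.2 FPKM in ICR, on an unshared value. The log2 difference was 0.29, and -0.22 under the trimmed mean and -2.16 under the ribosomal and housekeeping scaling. Slc7a11, the cystine-glutamate exchanger xCT that feeds glutathione synthesis, was at 16.9 FPKM in gerbil and 14.9 FPKM in ICR, a difference of 0.18 that turned negative under each of the 3 scalings. Its gerbil value was listed for 42 other genes, none of them found related and none with an E-value of 0, whereas that of Slc7a11 was 0.

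The light chains Slc7a7 and Slc7a8, which exchange cationic and large neutral amino acids, were lower in gerbil by less than 4-fold. Slc7a7, encoding y+LAT1, was at 3.12 FPKM in gerbil and 11.3 FPKM in ICR, and Slc7a8, encoding LAT2, was at 3.36 FPKM in gerbil and 12.3 FPKM in ICR. Slc7a6, encoding y+LAT2, was at 8.80 FPKM in gerbil and 5.47 FPKM in ICR. The neighbouring gene Slc7a6os, which is no carrier, was at 10.4 FPKM in gerbil and 12.0 FPKM in ICR.

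Arginine carriers could be compared only in part. Slc7a2, encoding CAT2, the cationic amino acid carrier induced in activated mouse macrophages, was at 23.8 FPKM in gerbil and 0.750 FPKM in ICR, a log2 difference of 3.82 on an E-value of 0 that was 1.54 under the ribosomal and housekeeping scaling. Slc7a1, encoding CAT1, the housekeeping arginine carrier, was at 9.36 FPKM in ICR without a gerbil value. Its coding sequence was 68.2% identical to that of Slc7a2 over 1224 bases, and how gerbil sequences were assigned between them was not tested. Both enzymes that compete for arginine were lower in gerbil: Nos2, inducible nitric oxide synthase, was at 2.66 FPKM in gerbil and 13.5 FPKM in ICR, and Arg1, arginase 1, was at 30.5 FPKM in gerbil, on a weak match, and 325 FPKM in ICR. Slc7a14 was listed at 54.2 FPKM in gerbil and 0.0320 FPKM in ICR, on an E-value of 2e-32. The same gerbil value was carried by 44 other genes, none found related to it and none with a match stronger than 1e-52. Both Slc7a2 and Slc7a14 passed the 1 FPKM floor through gerbil alone, which set their positive sign.

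Proton-coupled and facilitative carriers completed the list. Slc36a1, encoding the lysosomal amino acid carrier PAT1, was at 22.01 FPKM in gerbil and 5.38 FPKM in ICR, a log2 difference of 1.85 that was -0.41 under the ribosomal and housekeeping scaling. Slc36a4, encoding PAT4, was at 1.42 FPKM in gerbil, on an E-value of 2e-45, and 6.48 FPKM in ICR. Slc43a2, encoding LAT4, a carrier of large neutral amino acids, was at 32.1 FPKM in gerbil and 14.7 FPKM in ICR, higher in gerbil except under the ribosomal and housekeeping scaling. Slc43a3, a purine nucleobase carrier, was at 16.6 FPKM in gerbil and 21.9 FPKM in ICR.

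**Figure D3:**
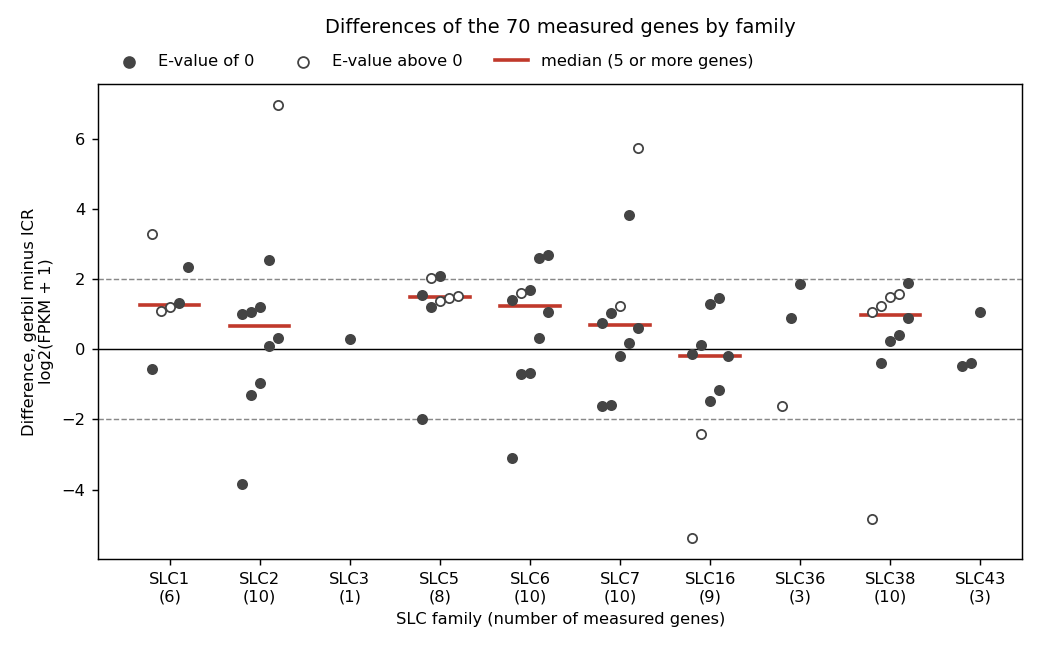
Differences of the 70 measured genes, log2(FPKM + 1), gerbil minus ICR, by SLC family with the number measured in brackets; filled points have an E-value of 0, dashed lines mark 4-fold, and red bars are medians of families with at least 5 genes. As deposited, SLC16 is the one family of that size with a median below 0, at -0.20. Under the ribosomal and housekeeping scaling medians of SLC2 (-0.90), SLC6 (-0.14), SLC7 (-0.99) and SLC38 (-0.74) were also below 0. Those of SLC1 (0.13) and SLC5 (0.33) stayed above 0. Most measured genes of both families passed the 1 FPKM floor through gerbil alone, which set their positive sign as deposited. With 1 FPKM in both libraries SLC7 was at -0.004, SLC16 at -0.16, and SLC2, SLC6 and SLC38 above 0. Open points are the highest in SLC2 and SLC7 and the lowest in SLC16 and SLC38.

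The 4-fold size was passed by 10 of the 70 measured genes upward in gerbil (14.3%) and by 5 downward (7.14%). Among all 20088 measured symbols 25.9% were that much higher and 5.56% that much lower, and among coding genes 9.71% and 7.42%. The higher genes were Slc1a4, Slc1a6, Slc2a3, Slc2a4, Slc5a4b, Slc5a6, Slc6a6, Slc6a19, Slc7a2 and Slc7a14, and the lower ones Slc2a6, Slc6a14, Slc16a3, Slc16a14 and Slc38a10. Slc2a3 and Slc2a4 each count among the 10 on 1 shared gerbil value. Of those higher 6 had an E-value of 0, and of those lower 2. Restricted to the 51 measured genes with an E-value of 0, 6 were higher (11.8%) and 2 lower (3.92%), against 6.1% and 5.99% of coding genes with that match. These shares rest on few genes, and are described here without a test.

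The median difference over the 70 was 1.02, against 0.87 for the 20088 symbols and 0.30 for coding genes. It was 0.41 over the 51 genes with an E-value of 0, against 0.21 for coding genes with that match, and 0.34 over the 70 with a pseudocount of 5. Of the 70, 22 passed the 1 FPKM floor through gerbil alone, at gerbil levels of 1.15 to 54.2 FPKM with a median of 1.945, and 4 passed through ICR alone, so the sign of these was set by how they entered. The 44 genes with at least 1 FPKM in both libraries had a median of 0.27, with 26 higher in gerbil, 18 lower and 21 within 2-fold. Of these 44, the 4-fold size was passed upward by 6 and downward by 1. Among 10742 coding genes with 1 FPKM in both it was passed by 488 (4.54%) and 793 (7.38%), and their median was 0.03. At 10 FPKM or more in both libraries 12 genes remained, 8 of them higher in gerbil, with a median of 0.59. The median of 4394 coding genes at that level was 0.06.

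**Figure D4:**
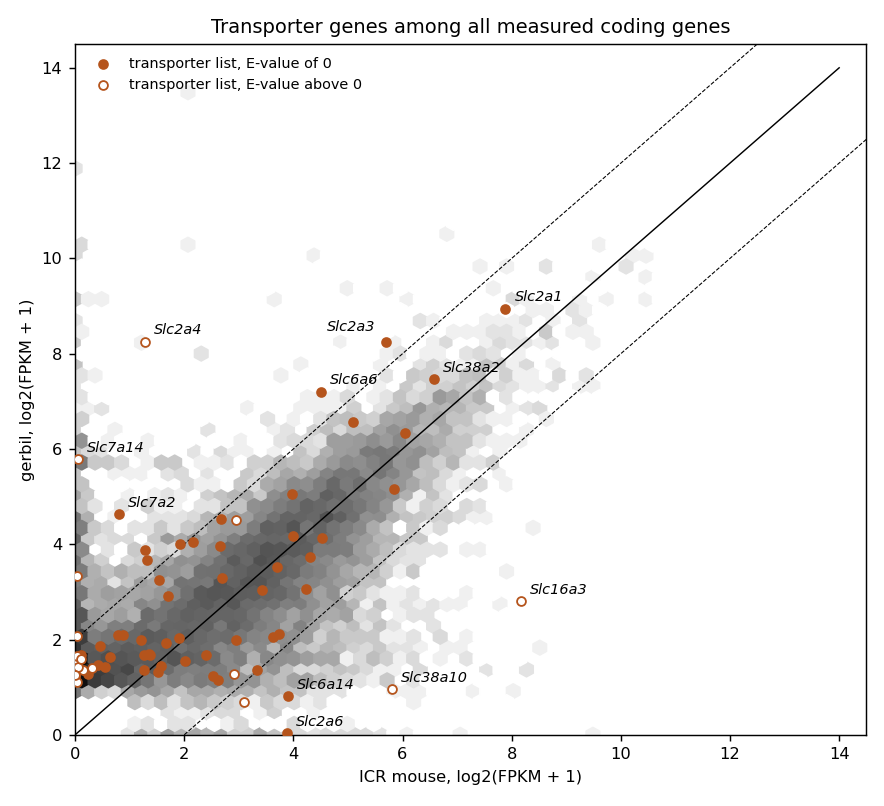
Level in gerbil against level in ICR, both as log2(FPKM + 1), for 14054 measured coding genes (grey, darker where more genes lie, log colour scale) and the 70 measured genes of the list (orange, open where the E-value is above 0); the solid line marks equal levels and dashed lines 4-fold. Slc2a1 and Slc38a2 lie inside the dashed lines, and Slc2a3, Slc6a6 and Slc16a3 outside them.

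Differences were recomputed under 3 ways of scaling the libraries, each of which lowers gerbil, so that only positive differences could change sign. Setting well-matched genes to a median difference of 0 lowered gerbil by 0.25 on the log2 scale, a trimmed mean of log ratios lowered it by 0.52, and 87 ribosomal protein and housekeeping genes lowered it by 2.53, or 5.79-fold. Under the last, 2 genes stayed past 4-fold higher in gerbil, Slc2a4 and Slc7a14, and 20 were past 4-fold lower. Slc2a3 (0.05), Slc6a6 (0.21), Slc6a19 (0.49), Slc1a4 (0.28), Slc1a6 (1.33) and Slc7a2 (1.54) stayed above 0 under it, while Slc2a1 (-1.46), Slc16a1 and Slc38a2 were below 0 under it and above 0 under the other scalings. Of these, Slc1a6, Slc7a2 and Slc7a14 had passed the 1 FPKM floor through gerbil alone, which set their positive sign as deposited. With so little in ICR, a lowering of gerbil could hardly turn Slc1a6 or Slc7a14 negative. The trimmed mean brought Slc1a4 (1.88) and Slc5a6 (1.601) inside 4-fold. A pseudocount of 5 brought inside it Slc1a4 (1.36), Slc1a6 (1.49), Slc5a6 (1.36) and Slc6a19 (1.55), and, among lower genes, Slc2a6 (-1.90), Slc6a14 (-1.72) and Slc16a14 (-1.17).

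**Figure D5:**
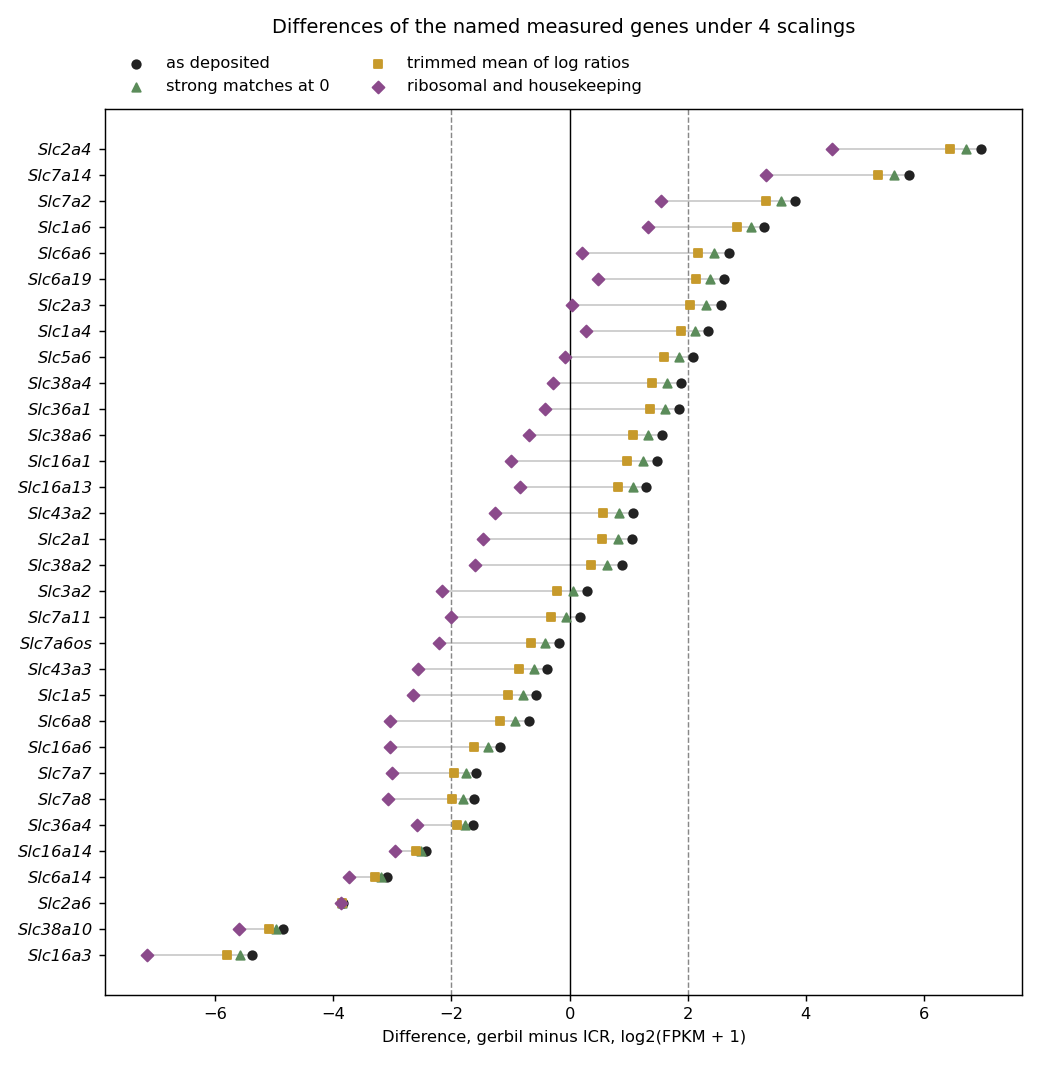
Log2 differences, gerbil minus ICR, of 32 named measured genes (rows) under the deposited FPKM and 3 scalings (symbols); dashed lines mark 4-fold and the solid line 0. Slc2a3 and Slc6a6 lie above the upper dashed line as deposited and near 0 under the ribosomal and housekeeping scaling, and Slc16a3 is the lowest under each.

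Of the 101 transporter genes 24 had an ICR value without a gerbil value, 24% of the 100 with an ICR value, against 31.7% of coding genes. Most were low in ICR wounds: of all 28 genes without a gerbil value, 10 were listed at 0 in ICR and 22 were under 1 FPKM. At 5 FPKM or more in ICR, 4 of 32 transporter genes had no gerbil value (12.5%), against 5.87% of coding genes: Slc5a1, Slc5a8, Slc6a20a and Slc7a1. RefSeq's gerbil gene list holds a gene of the same symbol for 19 of the 24, Slc5a1 and Slc5a8 among them. Of the 76 transporter genes with a gerbil value, 71 had their symbol in that list, and Slc2a3 was one of those that did not.

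Genes that act with these carriers showed differences of both signs. A list of 46 partners and metabolic genes, chosen with earlier results of these data known, had 43 measured members. Their median was 0.04, with 0 past 4-fold higher in gerbil and 6 past 4-fold lower, beside 9.71% and 7.42% of coding genes. Weak matches underlay 3 of the 6: Arg1 (E-value 2e-19), Hif1a, a factor of the hypoxia response, and G6pdx, which opens the pentose phosphate pathway. Hif1a was at 1.08 FPKM in gerbil and 87.2 FPKM in ICR (E-value 1e-16), and G6pdx at 1.62 FPKM in gerbil and 82.4 FPKM in ICR (E-value 6e-15). The others had an E-value of 0. Psat1, an enzyme of serine synthesis, was at 18.4 FPKM in gerbil and 96.6 FPKM in ICR, Nupr1, a stress-induced nuclear protein, at 28.2 FPKM in gerbil and 138 FPKM in ICR, and Cars, a transfer RNA synthetase for cysteine, at 6.81 FPKM in gerbil and 39.7 FPKM in ICR.

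Genes of glucose trapping, the step after uptake, and of glycolytic control differed in both directions, and those that follow had E-values of 0. Hk2, the inducible hexokinase, was at 59.8 FPKM in gerbil and 24.9 FPKM in ICR, and Hk1 was at 70.5 FPKM in gerbil and 44.7 FPKM in ICR. Pfkfb3, an activator of glycolysis, was at 57.8 FPKM in gerbil and 29.5 FPKM in ICR. Hk3, the hexokinase of leukocytes, was at 9.98 FPKM in gerbil and 22.7 FPKM in ICR, and Pdk1, which restrains pyruvate entry into mitochondrial oxidation, at 23.2 FPKM in gerbil and 26.5 FPKM in ICR. Both arrestin-family brakes on glucose uptake were measured: Txnip was at 110.5 FPKM in gerbil and 79.7 FPKM in ICR, and Arrdc4 at 10.6 FPKM in gerbil and 43.6 FPKM in ICR.

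In the amino acid stress response, whose factor Atf4 drives Slc7a11 and Slc3a2 in mouse cells, Atf4 was at 264 FPKM in gerbil and 152 FPKM in ICR. Its targets went both ways, with Chac1 at 27.1 FPKM in gerbil and 7.04 FPKM in ICR, Asns at 15.1 FPKM in gerbil and 44.9 FPKM in ICR, and Trib3 near level at 21.1 and 19.4 FPKM in gerbil and ICR. Glul, glutamine synthetase, was at 219 FPKM in gerbil and 90.6 FPKM in ICR.

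The labelled tissue was checked against marker genes. The dermal fibroblast markers Col1a2 and Dcn were at 1079 and 162 FPKM in gerbil and at 502 and 482 FPKM in ICR, and the epidermal keratin Krt1 was at 2469 FPKM in gerbil and 2471 FPKM in ICR, so epidermal RNA was present in libraries labelled dermis. Fat and muscle markers were both higher in gerbil in sum. The 4 fat cell markers summed to 33.5 FPKM in gerbil and 13.5 FPKM in ICR. Most of that gap was Lep, at 18.4 and 0.209 FPKM, while Adipoq was at 7.36 and 7.75 FPKM in gerbil and ICR. The 5 muscle markers summed to 322 and 181 FPKM in gerbil and ICR, with a shared gerbil value counted once and every ICR value counted. Of those, Mylpf was at 177 and 70.4 FPKM, Ckm at 66.1 and 58.6 FPKM and Tnnt3 at 15.6 and 34.2 FPKM in gerbil and ICR, and Myh1 and Myh4 shared a gerbil value of 63.6 FPKM. The 4 measured macrophage markers summed to 1056 FPKM in gerbil and 1711 FPKM in ICR, and the 6 fibroblast markers to 1674 and 1735 FPKM in gerbil and ICR. Of 8 keratinocyte markers 3 were higher in gerbil, and Krt14, listed at 0 in ICR, makes their sums unfit to compare. The 4 measured neutrophil markers summed to 299 FPKM in gerbil and 203 FPKM in ICR, with Fpr1 at 141 and 29.5 FPKM, Csf3r at 15.7 and 55.1 FPKM and Cxcr2 at 64.0 and 67.0 FPKM in gerbil and ICR. The other neutrophil markers, S100a8 and S100a9, were at 3242 and 4550 FPKM in ICR without a gerbil value. The part of cell composition in the carrier differences was not tested, and in bulk tissue fewer cells of a type and less RNA per cell cannot be told apart.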

How the data were processed

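Values were deposited by the authors as FPKM for both libraries, per the file headers, with an E-value per gerbil entry, a deposited number of other kind; gerbil expression was measured after assembly, per the file headers. Without roles, build GRCm38.p2 and the tools Cufflinks 2.2.1, RSEM 1.2.19, STAR 2.4.0b and CASAVA were named, per the submitters' processing notes. Depth is unknown. The table held 40993 ICR and 21056 gerbil values, and 221 genes, Slc7a5 among them, held a dash or text where the values should stand and were not analysed here. Symbols listed more than once were represented by the entry of highest mean. Differences used a pseudocount of 1, a floor of 1 FPKM and a size rule of 4-fold, without tests. Named genes had 10 FPKM in a library, 5 FPKM and 4-fold, the family's highest level, or 5 FPKM in ICR without a gerbil value; others were named after their values were seen. Members and lists were chosen with earlier results of these data known. Longest GENCODE M21 coding sequences were compared with blastn 2.17.0, keeping hits of at least 100 bases at an E-value of 1e-05 or less. Gerbil gene symbols came from RefSeq (Bangor_MerUng_6.1). Procedures were tested on simulated data. Computation used pandas 2.3.3, numpy 2.4.6, scipy 1.17.1 and matplotlib 3.10.9 under Python 3.11.15. Alternative pseudocounts, floors, scalings, size rules, summed entries and match restrictions were computed. Some genes of the families and lists are not reported here.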

Additional observations from a re-analysis of the deposited data

How the results depend on the processing

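No paired analysis was possible because there was 1 library per species, which also left none to leave out. The count of 10 genes past 4-fold higher in gerbil, of 70 measured, became 28 with a pseudocount of 0.1, 5 with a pseudocount of 5, 6 with 1 FPKM in both libraries (44 genes), 2 under the ribosomal and housekeeping scaling, 6 with an E-value of 0, 1 of the 5 with an unshared gerbil value, 36 at 2-fold and 4 at 8-fold. The count of 5 lower genes became 2 with a pseudocount of 5, 1 with 1 FPKM in both libraries, 20 under the ribosomal and housekeeping scaling, 2 with an E-value of 0, 3 with an E-value of 1e-50 or less, 0 with an unshared value and 12 at 2-fold. Restricted sets hold fewer genes by construction; otherwise the cause was not tested. The median of 1.02 (exact 95% interval over genes 0.29 to 1.22, a spread over genes and not animals) became 1.28 with a pseudocount of 0.1, 0.34 with a pseudocount of 5, 0.41 with an E-value of 0, 0.58 under the trimmed mean, 0.60 with 5 FPKM in at least 1 library, 0.27 with 1 FPKM in both libraries and -0.82 under the ribosomal and housekeeping scaling. The SLC38 median became -0.74 under that scaling, and the SLC5 median of 1.49 became 3.69 with a pseudocount of 0.1. Slc5a6 was at 2.08 as deposited and at -0.0741 under the ribosomal and housekeeping scaling, and no other named gene past 4-fold changed sign under any setting run. Leaving out the 5 genes that are no transporter or share a gerbil value with a related sequence, chosen after seeing the data, left 8 higher and 5 lower of 65. Summing entries moved none of these values. Among 32 named genes, a pseudocount of 5 brought 7 inside 4-fold, and the ribosomal and housekeeping scaling brought 6 besides Slc5a6 inside it and 10 past it. Family medians could not be given with unshared values, nor for families left with too few genes under the stricter floors. Depth is unknown, so no limit from depth can be stated.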
